A study of Mus musculus with 9 samples.

Results

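Muc19, Smgc, Bpifa2, Dcpp1, Dcpp2 and Dcpp3 encode secreted proteins of sublingual, parotid or newborn submandibular acinar cells. They were followed by RNA sequencing in submandibular salivary glands of irradiated mice (10 Gy). The 6 genes were taken by name, from a count table of 54532 Ensembl gene identifiers. The 9 libraries fall into 3 groups of 3, collected 30, 60 and 90 days after radiation, and every mouse is labelled wild type. The labels give the tissue only as salivary gland, the protocol names the submandibular gland, and neither strain, age nor sex is stated. The RNA was extracted from tissue sections (4, of 50 µm), so a library samples part of a gland. Unirradiated glands were not analysed here, so each comparison is between times after radiation, and time since radiation cannot be told apart from age. The labels call the libraries samples of a time point without saying that each is a different animal, and p-values measure only the spread between these libraries.

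The sublingual gland lies against the submandibular gland in the mouse, and the glands differ in what their acini secrete. Mucous cells of the sublingual gland make the gel-forming mucin Muc19, and serous demilune cells capping them make Dcpp proteins and Bpifa2. In the submandibular gland the acini of newborn mice make Smgc (submandibular gland protein C) and Bpifa2 (parotid secretory protein), and these products decline as the seromucous acini mature. Smgc and Muc19 come from a common locus through alternative splicing. The Dcpp (demilune cell and parotid protein) genes are neighbouring near-copies.

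Smgc (ENSMUSG00000047295) lies on chromosome 15 at 91838265 to 91861438 and Muc19 (ENSMUSG00000044021) at 91838326 to 91934555, both on the plus strand of GRCm38 in GENCODE release 21. The annotated exons of these genes share 95 bases, which are 2.79% of the exonic bases of Smgc and 1.04% of those of Muc19. GENCODE lists Muc19 as a processed transcript, with 9105 exonic bases in 43 blocks. Bpifa2 (ENSMUSG00000042459) lies on chromosome 2 at 154008265 to 154016079, plus strand, and shares no exonic base with another gene. Dcpp1 (ENSMUSG00000096445), Dcpp2 (ENSMUSG00000096278) and Dcpp3 (ENSMUSG00000057417) lie on the plus strand of chromosome 17, at 23880876 to 23882853, 23880880 to 23900788 and 23917458 to 23919441. The annotated span of Dcpp2 covers nearly all of Dcpp1, and their exons share 30 bases. RefSeq places the start of Dcpp2 inside that span and downstream of Dcpp1, so the Dcpp2 window printed below is not at the first base of the GENCODE gene. The RefSeq starts of Smgc and Bpifa2 also lie downstream of the first bases of the GENCODE genes. The Smgc window holds the first base of the GENCODE Muc19 gene. The longest transcripts of Dcpp2 and Dcpp3 are 95.4% identical, and that of Dcpp1 is 83.7% identical to either. Of all stretches of 50 bases in the Dcpp1 transcript, 46.5% also occur in a transcript of another gene, against 43.0% for Dcpp2, 46.1% for Dcpp3, 1.50% for Smgc and 0% for Bpifa2. At 100 bases these shares were 19.9%, 21.7% and 26.3% for the Dcpp genes and 0% for Smgc, Muc19 and Bpifa2. How the counting treated reads that match several genes is not given in the sources used here, so the split between Dcpp genes is uncertain and their sum is given as well.

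The sequences around the start sites are shown because the copies differ little there while the levels of the Dcpp genes, Bpifa2 and Smgc differ widely. RefSeq's GRCm38.p6 table holds 5 of the 6 genes, each as 250 bases before and 50 after the start, and capitals mark TATAA.
Smgc (chr15:91838078-91838377, plus strand): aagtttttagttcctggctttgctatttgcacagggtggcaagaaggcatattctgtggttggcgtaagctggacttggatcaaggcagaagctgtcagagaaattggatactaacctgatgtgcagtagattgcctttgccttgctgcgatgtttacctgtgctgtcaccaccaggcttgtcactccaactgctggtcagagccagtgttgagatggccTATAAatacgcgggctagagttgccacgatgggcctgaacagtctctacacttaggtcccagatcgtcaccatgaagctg
Bpifa2 (chr2:154008026-154008325, plus strand): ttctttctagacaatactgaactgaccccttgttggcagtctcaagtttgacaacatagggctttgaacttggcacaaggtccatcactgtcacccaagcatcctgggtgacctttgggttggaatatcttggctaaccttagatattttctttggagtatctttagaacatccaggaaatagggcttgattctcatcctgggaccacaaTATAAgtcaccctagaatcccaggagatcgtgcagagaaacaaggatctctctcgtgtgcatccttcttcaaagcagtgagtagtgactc
Dcpp1 (chr17:23880626-23880925, plus strand): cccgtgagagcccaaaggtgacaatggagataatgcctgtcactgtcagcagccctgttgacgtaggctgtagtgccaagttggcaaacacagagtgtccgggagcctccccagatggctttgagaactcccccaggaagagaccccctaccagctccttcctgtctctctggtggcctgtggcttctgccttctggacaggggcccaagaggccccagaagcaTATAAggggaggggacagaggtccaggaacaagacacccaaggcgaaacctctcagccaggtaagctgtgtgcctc
Dcpp2 (chr17:23898472-23898771, plus strand): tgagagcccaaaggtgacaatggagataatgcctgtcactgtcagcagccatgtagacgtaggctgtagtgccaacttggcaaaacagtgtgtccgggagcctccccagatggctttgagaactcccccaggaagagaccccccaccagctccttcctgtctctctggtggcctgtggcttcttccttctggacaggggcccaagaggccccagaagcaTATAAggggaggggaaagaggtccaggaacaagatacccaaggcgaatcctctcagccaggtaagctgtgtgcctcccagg
Dcpp3 (chr17:23917208-23917507, plus strand): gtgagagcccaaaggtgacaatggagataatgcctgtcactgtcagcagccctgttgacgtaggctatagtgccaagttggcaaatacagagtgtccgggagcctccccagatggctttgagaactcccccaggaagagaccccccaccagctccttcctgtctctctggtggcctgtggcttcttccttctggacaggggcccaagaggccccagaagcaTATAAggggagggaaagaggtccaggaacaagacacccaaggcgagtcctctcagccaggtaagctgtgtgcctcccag
All 5 windows hold TATAA, the core of the TATA box, at -30 from the start site in Smgc, -40 in Bpifa2, -26 in Dcpp1, -31 in Dcpp2 and -29 in Dcpp3. Both strands were searched, and 24.9% of the 32851 windows of the same length in the table hold it. The Dcpp windows were 93.8% (Dcpp1 and Dcpp2), 95.1% (Dcpp1 and Dcpp3) and 96.4% (Dcpp2 and Dcpp3) identical. Smgc and Bpifa2 shared 47.5% of aligned positions, and the other pairs of unlike genes lay between 46.1% and 49.4%. CATATG and CAGCTG, forms of the E-box read by basic helix-loop-helix factors, were in none of these 5 windows and are in 3.91% and 16.3% of all windows. AGAACA, a steroid receptor half-site, was in Bpifa2 alone of the 5, at -85, and is in 19.0% of all windows.

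Library totals ran from 16541396 to 17179500 counts at 30 days, from 21722141 to 24880803 at 60 days and from 20410818 to 26065856 at 90 days. The submandibular product Mucl2 took 31.4% to 42.8% of each. Values below are CPM, counts scaled to the library total by edgeR's TMM method. The libraries carried products of the submandibular gland, which the protocol names. Prol1, another abundant submandibular secretory product, was at 38437 CPM or more and the granular duct product Egf at 811 CPM or more in each. In 90-day library 2 the 10 lymphocyte and lymph node markers summed to 8.66 CPM, against 0.734 to 1.96 in the other 8 libraries. In the text below a library is named by its day and the number in its title.

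Smgc had the highest average of the 6 genes, and Muc19 the lowest per length. Averaged over the 9 libraries and divided by exonic length, Smgc was at 183 CPM per kilobase, Bpifa2 at 63.0, Dcpp1 at 4.81, Dcpp3 at 2.29, Dcpp2 at 0.123 and Muc19 at 0.0412. The ranges over libraries were 43.1 to 334 CPM per kilobase for Smgc and 7.02 to 201 for Bpifa2, so these neighbours in the order overlap. In 90-day library 2 Bpifa2 was above Smgc, at 201 against 103 CPM per kilobase. Dcpp1 (0.115 to 12.3) and Dcpp3 (0.255 to 9.44) also overlap, while each Bpifa2 value was above the Dcpp1 and Dcpp3 values of the same library.

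**Figure D1:**
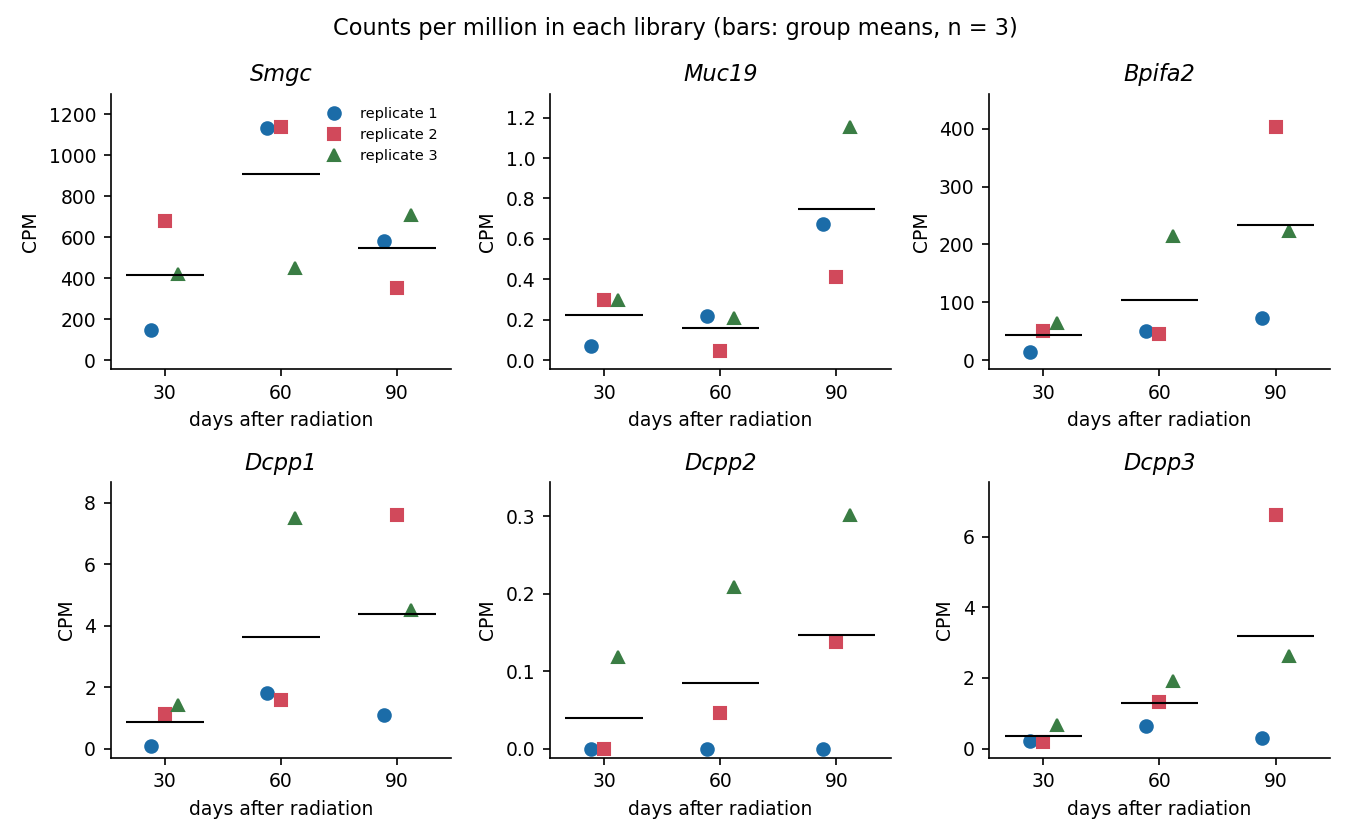
CPM (linear axes, 1 panel per gene) in each of the 9 libraries against days after radiation, with symbols for the replicate number and bars for the mean of 3 libraries. Smgc is highest in 2 of the 60-day libraries, Bpifa2 and Dcpp1 are highest of their time point in 60-day library 3 and 90-day library 2, and Muc19 and Dcpp2 stay near or under 1 CPM.

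Smgc, the newborn acinar product, measured 147, 679 and 421 CPM in 30-day libraries 1, 2 and 3. It measured 1131, 1139 and 451 CPM at 60 days, and 583, 351 and 708 CPM at 90 days. The 60-day libraries 1 and 2 were above all others, but 60-day library 3 lay within the range of the other time points, so no pair of groups was separate. The means were 416 ± 266, 907 ± 395 and 547 ± 181 CPM (SD, n = 3 each). The log2 difference between 60 and 30 days was 1.12 ± 0.64 (SE), with a 95% interval of -0.43 to 2.68 and an adjusted p of 0.561 by edgeR's quasi-likelihood test. From 60 to 90 days the log2 difference was -0.73 ± 0.64 (SE; interval -2.27 to 0.81, edgeR adjusted p = 0.759). Between 90 and 30 days it was 0.40 ± 0.64 (SE; interval -1.14 to 1.93, edgeR adjusted p = 0.837), and -0.0094 without 30-day library 1, which took the difference between 60 and 30 days to 0.72. It was 0.94 without 30-day library 2, 0.63 without 90-day library 2, 0.16 without 90-day library 3 and 0.60 with limma-voom.

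Muc19, the gel-forming mucin that marks sublingual mucous cells, had 77 counts in all 9 libraries together, where Smgc from the same locus had 124431. The annotation used for counting is not given, so how much of the Muc19 transcript was counted is unknown. Muc19 counts were 1, 5 and 5 at 30 days, 5, 1 and 5 at 60 days, and 20, 12 and 23 at 90 days. In CPM these were 0.0709, 0.297 and 0.296, then 0.216, 0.0452 and 0.209, then 0.674, 0.412 and 1.15, beside a floor of 3 counts that stands for 0.115 to 0.181 CPM of a library. Each 90-day library was above all earlier ones. Muc19 passed the filter on low counts only through those 90-day libraries, so its difference is a description: the log2 difference was 2.17 ± 0.70 (SE) from 60 to 90 days (edgeR adjusted p = 0.258) and 1.67 ± 0.70 (SE) from 30 to 90 days (edgeR adjusted p = 0.232). Between 60 and 30 days it was -0.51 ± 0.82 (SE; edgeR adjusted p = 0.860), and between -0.88 (without 30-day library 1) and -0.09 (without 60-day library 2) over the alternatives.

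Bpifa2, a secreted protein with the fold of the bactericidal/permeability-increasing protein, ranged most widely among the abundant genes of the group. It measured 14.1, 50.5 and 64.8 CPM in the 30-day libraries, 50.6, 45.2 and 215 CPM at 60 days, and 72.2, 404 and 223 CPM at 90 days. Every 90-day library was above every 30-day one, whereas 60-day library 3 was some way above the other libraries of its time point and overlapped the 90-day values. The means were 43.1 ± 26.1, 104 ± 96.4 and 233 ± 166 CPM (SD, n = 3 each). The log2 difference between 90 and 30 days was 2.43 ± 0.99 (SE; 95% interval 0.02 to 4.84), with an unadjusted p of 0.0488 and an adjusted p of 0.293 by edgeR's test over 15224 genes. The differences between 60 and 30 days (1.26 ± 0.97, SE) and between 90 and 60 days (1.17 ± 0.94, SE) had edgeR adjusted p-values of 0.683 and 0.736 and intervals on both sides of 0. Without 60-day library 3 the log2 difference between 60 and 30 days was 0.15. At 90 against 60 days it was 2.27 without 60-day library 3 and 0.50 without 90-day library 2.

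Dcpp1, the best counted of the demilune cell genes, had 1, 19 and 24 counts at 30 days, 42, 35 and 180 at 60 days, and 32, 221 and 90 at 90 days. In CPM it measured 0.0709, 1.13 and 1.42, then 1.81, 1.58 and 7.51, then 1.08, 7.60 and 4.52. The 60-day values were all above the 30-day values, though narrowly, and 90-day library 1 lay among the 30-day values. The log2 differences were 2.01 ± 1.12 (SE) between 60 and 30 days (edgeR adjusted p = 0.547) and 2.28 ± 1.11 (SE) between 90 and 30 days (edgeR adjusted p = 0.370). Without 60-day library 3 the former was 0.91. Between 90 and 60 days the log2 difference was 0.27 ± 0.93 (SE; edgeR adjusted p = 0.952), and its sign turned when 60-day library 1 (-0.06), 60-day library 2 (-0.09) or 90-day library 2 (-0.43) was left out. It was 1.36 without 60-day library 3 and 0.73 without 90-day library 1.

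Dcpp3 had 3, 3 and 11 counts at 30 days, 15, 29 and 46 at 60 days, and 9, 192 and 52 at 90 days. These were 0.213, 0.178 and 0.651 CPM, then 0.647, 1.31 and 1.92 CPM, then 0.303, 6.60 and 2.61 CPM. Its 90-day libraries thus spanned most of its whole range, with library 1 among the 30-day values and library 2 above all others. The log2 difference between 90 and 30 days was 3.15 ± 1.10 (SE; 95% interval 0.61 to 5.69, edgeR adjusted p = 0.196). That difference passed the threshold with DESeq2 (adjusted p = 0.0492), with the replicate number as a block in edgeR (adjusted p = 0.0325) and without 90-day library 1 (edgeR adjusted p = 0.00149). Between 60 and 30 days it was 1.86 ± 1.16 (SE; edgeR adjusted p = 0.589), and between 90 and 60 days 1.29 ± 0.90 (SE; edgeR adjusted p = 0.669). Without 90-day library 2 the log2 difference was 0.11 between 60 and 90 days and 1.98 between 30 and 90 days, and limma-voom gave 0.48 between 60 and 90 days.

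Dcpp2 was counted 18 times in all and did not pass the filter on low counts. Its counts were 0, 0 and 2 at 30 days, 0, 1 and 5 at 60 days, and 0, 4 and 6 at 90 days. The sum of Dcpp1, Dcpp2 and Dcpp3 measured 0.284, 1.31 and 2.19 CPM at 30 days, 2.46, 2.94 and 9.64 CPM at 60 days, and 1.38, 14.3 and 7.43 CPM at 90 days. Tested as 1 feature, the sum differed by 2.57 ± 1.12 (SE) on the log2 scale between 90 and 30 days, with an edgeR adjusted p of 0.320. Dcpp1 took 77.9% of the Dcpp counts in 60-day library 3 (180 of 231, exact 95% interval 72.0% to 83.1%) and 53.0% in 90-day library 2 (221 of 417, interval 48.1% to 57.9%). These intervals, of the libraries richest in Dcpp reads, do not overlap. They cover counting error only, not the spread between libraries or the assignment of shared reads, so no difference in make-up is drawn from them. Over the other libraries the Dcpp1 share lay between 53.8% and 86.4%, apart from 30-day library 1 with 4 Dcpp counts in all.

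**Figure D2:**
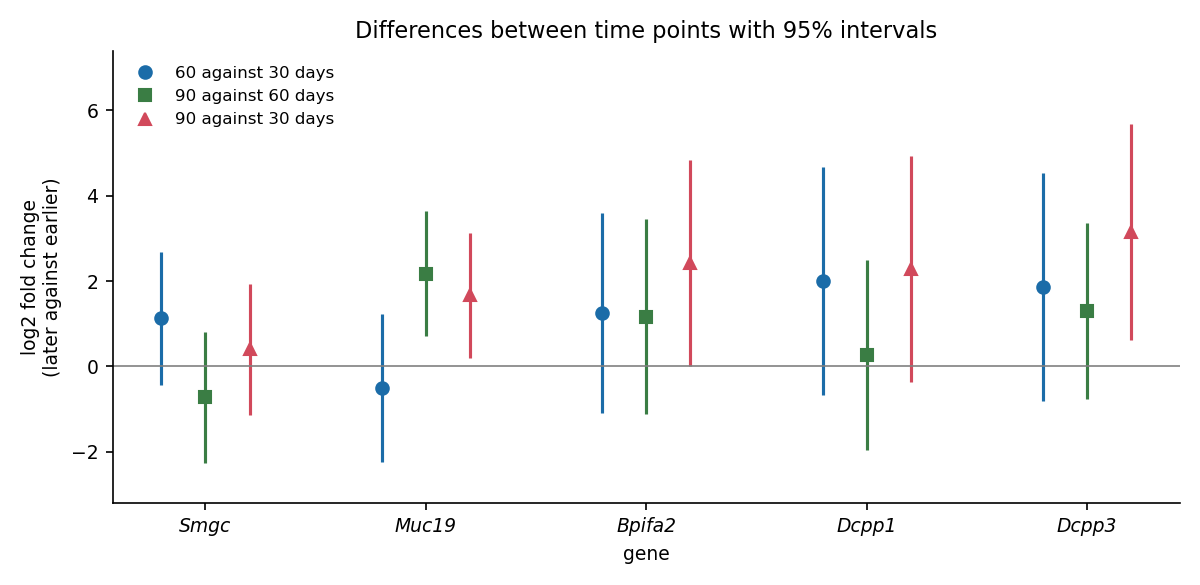
Log2 fold changes of the later against the earlier time point (points) with 95% intervals (lines) from the edgeR fit, for the 5 genes that passed the filter. Most intervals span 0 and are several log2 units wide, the widest for Bpifa2, Dcpp1 and Dcpp3, and Muc19 passed the filter only through its 90-day libraries.

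Across these comparisons, 0 of the 5 genes tested passed an adjusted p of 0.05 in edgeR's quasi-likelihood test, where 1.56% of all 15224 genes did when 60 days was compared with 30 (1.14% higher, 0.427% lower). Of all genes, 0.256% passed between 60 and 90 days (0.092% higher, 0.164% lower), 3.57% between 30 and 90 days (1.81% higher, 1.77% lower) and 3.29% for any difference among the time points. Muc19 is left out of the counts that follow, since it passed the filter only through its 90-day libraries. Of the other 4, edgeR gave an unadjusted p under 0.05 to 0 between 30 and 60 days (12.4% of all genes), to 0 between 60 and 90 days (10.8%) and to 0 for any difference (16.7%). Between 30 and 90 days it did so for 2, Bpifa2 and Dcpp3 (16.8% of all genes). DESeq2 called Dcpp3 between 30 and 90 days, where it called 867 of all 15224 genes, and no other of the 5. Limma-voom called 0 of the 5 in every comparison, where it called 444 of all genes between 30 and 90 days. The 30-day and 90-day values did not overlap, with 90 days higher, for Bpifa2 alone of these 4, a pattern that 11.4% of all genes tested showed (11.8% with 90 days lower). For 60 against 30 days Dcpp1 alone did not overlap, higher at 60 days as were 8.65% of all genes (8.22% lower), and for 90 against 60 days all 4 overlapped, where 8.3% of all genes were higher without overlap and 7.64% lower. In bulk tissue, fewer cells of a type and less RNA per cell cannot be told apart, for these genes as for those below.

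The libraries of a single time point differed more in Smgc, Bpifa2, Dcpp1 and Dcpp3 than in nearly all other genes. The SD of log2 CPM about the time-point means was 1.48 for Dcpp1, 1.36 for Dcpp3, 1.23 for Bpifa2, 0.84 for Smgc and 0.68 for Muc19. The median over all 15224 genes tested was 0.22 and the 95th percentile 0.77. Dcpp1 thus stood at percentile 99.9, Dcpp3 at 99.8, Bpifa2 at 99.6, Smgc at 96.4 and Muc19 at 92.7, with 16, 30, 57, 547 and 1117 genes above them. The place of Smgc hung on single 30-day libraries. Its SD was 0.63 without 30-day library 1 and 0.76 without 30-day library 2, under the 0.77 found with all libraries. Percentiles were not recomputed with a library left out. Muc19, Dcpp1 and Dcpp3 rest on few counts in several libraries, whereas Smgc and Bpifa2 rest on at least 2075 and 199 counts in every library. Within a time point the highest Bpifa2 library exceeded the lowest 4.60-fold at 30 days, 4.75-fold at 60 days and 5.59-fold at 90 days. For Smgc these ratios were 4.62, 2.52 and 2.02.

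**Figure D3:**
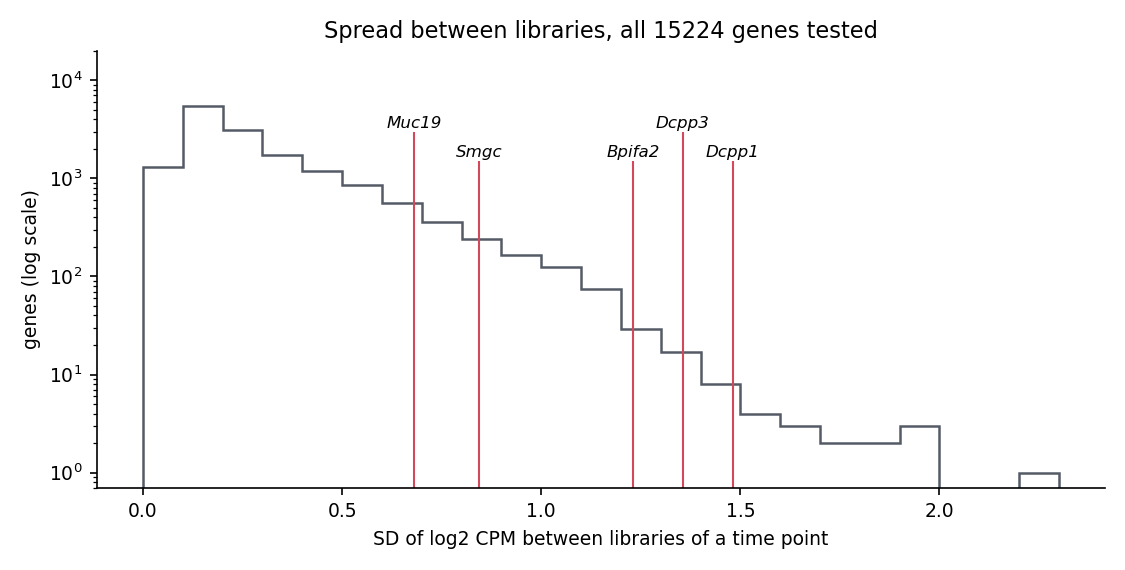
Number of genes (log axis) by the SD of log2 CPM between libraries of the same time point (0.1 per step), over the 15224 genes tested, with lines at 5 of the genes described. With all libraries, Smgc, Bpifa2, Dcpp3 and Dcpp1 lie beyond the 95th percentile of 0.77, and Muc19 lies below it.

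Bpifa2, Dcpp1 and Dcpp3 varied together over the 9 libraries, and Smgc did not follow them. The 6 pairs were chosen after these values had been seen. The p-values of the pairs therefore describe a pattern already seen in the same libraries and are no independent test of it. Permutation over all 9 libraries does not set aside differences between time points. Within time points only the pair of Bpifa2 and Dcpp1 had an adjusted p under 0.05. Over the 9 libraries Bpifa2 and Dcpp1 had Pearson's r of 0.94 (exact permutation test, 2-sided, p = 0.00116, Benjamini-Hochberg adjusted over 6 pairs 0.00694) and Spearman's rho of 0.73 (exact permutation p = 0.0311, adjusted 0.0622). Without 30-day library 1 and 90-day library 2, the libraries farthest from the Bpifa2 median, r was 0.89. With the time-point means removed and the libraries permuted within time points, r was 0.98 (exact permutation p = 0.00463, the smallest that 216 arrangements allow, adjusted 0.0278). Bpifa2 and Dcpp3 had r = 0.85 (exact permutation p = 0.00417, adjusted 0.00930) and rho = 0.75 (exact permutation p = 0.0255, adjusted 0.0622), with r = 0.70 without the same libraries and 0.76 within time points (exact permutation p = 0.0417, adjusted 0.0926). Dcpp1 and Dcpp3, which share sequence, had r = 0.83 (exact permutation p = 0.00465, adjusted 0.00930) and rho = 0.88 (exact permutation p = 0.00308, adjusted 0.0185), with r = 0.84 without those libraries and 0.70 within time points (exact permutation p = 0.0463, adjusted 0.0926).

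Smgc had r = 0.16 with Bpifa2 (exact permutation p = 0.689, adjusted 0.780), 0.40 with Dcpp1 (exact permutation p = 0.273, adjusted 0.409) and 0.11 with Dcpp3 (exact permutation p = 0.780, adjusted 0.780). The corresponding rho values were -0.15, 0.13 and 0.02 (exact permutation p = 0.708, 0.744 and 0.982, adjusted 0.892, 0.892 and 0.982). Without 30-day library 1 and 60-day library 2, which lie farthest from the Smgc median, r turned to -0.58, -0.43 and -0.46, and within time points it was -0.05, 0.15 and -0.27 (exact permutation p = 0.875, 0.755 and 0.398, adjusted 0.875, 0.875 and 0.597). At 60 days library 3 had the lowest Smgc and the highest Bpifa2, Dcpp1 and Dcpp3, and at 90 days library 2 did. At 30 days library 1 was lowest in Smgc, Bpifa2 and Dcpp1 alike. Bpifa2 reads per Smgc read ran from 0.0397 in 60-day library 2 to 0.476 in 60-day library 3, and from 0.124 in 90-day library 1 to 1.15 in 90-day library 2. The pairs were chosen after the values had been seen.

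**Figure D4:**
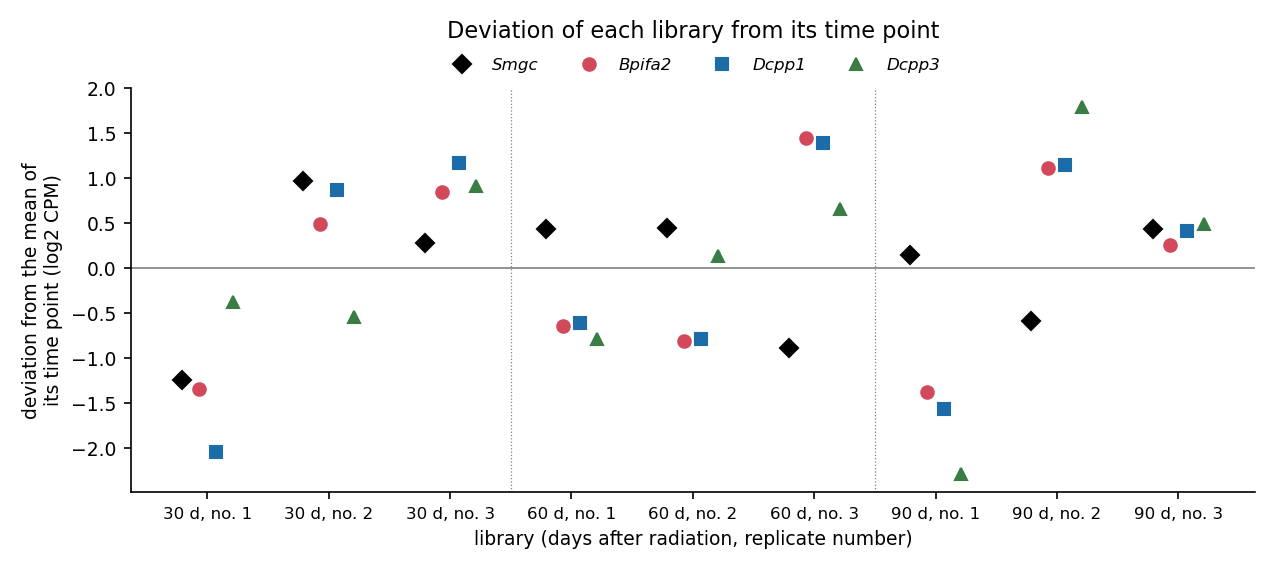
Deviation of log2 CPM of Smgc, Bpifa2, Dcpp1 and Dcpp3 (symbols) in each library from the mean of its time point, with dotted lines between time points. Bpifa2 and Dcpp1 lie on the same side of 0 in every library, and Smgc lies on the other side of 0 from Bpifa2 in all 60-day libraries and in 90-day libraries 1 and 2.

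Markers of adjoining glands and tissues were read in the same libraries. Muc19, which marks sublingual mucous cells, was at 5 counts (0.209 CPM) in 60-day library 3 and 12 counts (0.412 CPM) in 90-day library 2, the libraries with the most Bpifa2 and Dcpp1 of their time points. In 90-day library 3, where Bpifa2 (223 CPM) was slightly above that of 60-day library 3 (215 CPM), Muc19 had 23 counts. At 60 days library 1 had the same 5 counts of Muc19, and at 90 days library 1 had 20. Of parotid products, Amy1 (salivary amylase) was at 17.8 CPM in 60-day library 3, the highest of the 9, at 14.1 CPM in 90-day library 2, and between 6.52 and 15.8 CPM in the others. The proline-rich protein gene Prb1 had 13 and 16 counts, 15 in 90-day library 3 and at most 6 in the rest. Prpmp5, another proline-rich protein gene, had 11 counts in 90-day library 2, 6 in 90-day library 3 and at most 4 elsewhere. Of the other proline-rich genes listed, Prh1 had 2 counts in 60-day library 3 and 0 in 90-day library 2, against 9 in 90-day library 3 and up to 6 elsewhere, and Prp2 had 1 count in each, against up to 4 elsewhere. Dnase1 was at 3.09 CPM in 60-day library 3 and 1.86 CPM in 90-day library 2. Elsewhere it ran from 1.01 to 4.32 CPM, the latter in 60-day library 1. Car6, a secreted carbonic anhydrase of serous acini, was at 24819 CPM in 60-day library 3 and 19182 CPM in 90-day library 2. It was between 20165 and 41577 CPM in the others. The parotid list as a whole, 7 of 7 with counts, summed to 24840 and 19199 CPM in those libraries and to 20182 to 41595 CPM elsewhere. Nearly all of that came from Car6, which was abundant in every library. The sum thus follows Car6, says little about the other genes listed, and is no measure of parotid tissue here. The part of adjoining gland tissue in the spread of Bpifa2, Dcpp1 and Dcpp3 was not tested.

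The high lymphocyte sum of 90-day library 2 included Cd79a with 68 counts and Ms4a1 with 39, both B cell genes, where the other libraries had at most 4 and 3. In 60-day library 3 these genes had 4 and 0 counts and the list summed to 1.04 CPM, and in 90-day library 3 they had 1 count each and the list summed to 1.96 CPM. Of the lymph node stroma and vessel genes listed, Ccl21a was at 0 counts in all 9 libraries, while Ccl19 had 1 count and Glycam1 had 2, all in 90-day library 2. The part of lymphoid tissue in the values of 90-day library 2 was not tested. Skeletal muscle markers (7 of 10 with counts) summed to 1.66 to 3.24 CPM, and adipocyte markers (7 of 7) to 7.55 to 23.2 CPM with the highest sum in 30-day library 2. Bpifb3, a relative of Bpifa2 in the BPI fold family, had 24 counts in 90-day library 2, 6 in 60-day library 3 and at most 2 elsewhere. The more abundant genes of that family list were highest in other libraries. Bpifb4 had 17 counts in 60-day library 1, against 10 in 90-day library 2 and 2 in 60-day library 3. Lbp was highest in 60-day library 2 (6.29 CPM), against 6.09 CPM in 60-day library 3 and 4.92 CPM in 90-day library 2. Pltp was highest in 30-day library 3, with 16.74 CPM in 90-day library 2.

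Genes of mature submandibular acini that passed edgeR's test were lower at the later time. Of 11 tested, 4 fell between 30 and 90 days: Lpo, the gene of lactoperoxidase, by 0.60 ± 0.16 (SE, log2; edgeR adjusted p = 0.0454), the water channel Aqp5, the potassium channel Kcnn4 and the muscarinic receptor Chrm3. Bhlha15, a transcription factor of secretory cells, fell by 0.78 ± 0.12 (SE, log2; edgeR adjusted p = 0.00581) between 60 and 90 days, and edgeR called none of the 11 higher. DESeq2 called 7 of the 11 lower at 90 than at 30 days, and 1 higher and 1 lower at 60 than at 30 days. With library size alone as the scaling, 1 of the 11 was lower at 90 than at 30 days, where that scaling moved the median of all genes to 0.24. The median log2 difference of the list between 90 and 30 days was -0.47, beside 0.01 over all genes tested. Their median within-time SD was 0.21, near the 0.22 of all genes.

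Products of the granular convoluted ducts, the androgen-responsive duct segment that stores growth factors and kallikreins, rose in 14 of 17 genes between 30 and 90 days and in 13 of 17 between 30 and 60 days, with no gene lower. With library size alone as the scaling these counts were 15 and 7. Egf, epidermal growth factor, rose by 2.14 ± 0.26 (SE, log2; edgeR adjusted p = 0.00129) between 30 and 60 days. The Klk1b kallikreins in this list are close paralogs. In 30-day library 1, where Smgc, Bpifa2 and Dcpp1 were lowest, the duct list also had its lowest sum, 23134 CPM against 32183 to 64273 in the others. The mature acinar list had its highest sum there, 649124 CPM against 311670 to 533937 in the others, and Mucl2 its highest share of counts, 42.8%. The part of that library's make-up in its low values was not tested, and without it the Bpifa2 log2 difference between 90 and 30 days was 2.01.

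Genes for mucin production were measured beside the scarce Muc19. Of 23 listed genes 16 were tested, and St3gal1, a sialyltransferase, averaged 656 CPM, the secretory pathway factor Creb3l1 277 CPM and the mucin-type glycosyltransferase Galnt3 148 CPM. C1galt1, which extends mucin-type glycans, rose between 30 and 60 days by 0.55 ± 0.12 (SE, log2; edgeR adjusted p = 0.0248). Spdef, a transcription factor of mucous and goblet cells, fell by 0.41 ± 0.11 (SE, log2; edgeR adjusted p = 0.0419) and St6galnac1, another sialyltransferase, rose by 1.74 ± 0.37 (SE, log2; edgeR adjusted p = 0.0118) between 30 and 90 days. With library size alone as the scaling, 0 of the 16 passed between 30 and 60 days in edgeR (2 at an unadjusted p under 0.05) and none was lower at 90 than at 30 days, and limma-voom called 0 of the 16 between 30 and 90 days (8 at an unadjusted p under 0.05). Clca1, Ern2, Tff1, Tff2 and Tff3, products and helpers of mucous cells elsewhere, were at 0 counts in all 9 libraries. Of the other mucins, Muc13, a membrane mucin, rose by 1.30 ± 0.18 (SE, log2; edgeR adjusted p = 0.00380) between 30 and 60 days, and the gel-forming Muc5b and Muc5ac had at most 3 and 1 counts in a library.

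Regulators and markers of immature acinar and end bud cells varied less between libraries than Smgc and Bpifa2. Sox10 averaged 108 CPM (90.5 to 117), Elf5 97.5 CPM, Sox9 80.0 CPM and the receptor Kit 37.7 CPM. Of the 9 tested, 0 passed an adjusted p of 0.05 in edgeR in any of the pairwise comparisons with TMM scaling, with 1 (30 and 60 days), 2 (60 and 90 days) and 3 (30 and 90 days) at an unadjusted p under 0.05. DESeq2 called 0, 0 and 1 of them, edgeR with library size alone as the scaling also 0, 0 and 1 (higher at 90 days), and limma-voom 0 in each. Their median within-time SD was 0.23.

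The genes whose log2 CPM over the 9 libraries was most like that of each gene were sought among 13020 genes with an average of at least 1 CPM, by Pearson's r as a description. The r values below were picked as the highest among 13020 genes over only 9 libraries. They are high by that choice, and no co-expression is drawn from them. For Bpifa2 the genes most alike were Cck (r = 0.99), Igfbp5 (0.97), Slco2a1 (0.97), Postn (0.96) and Fhod3 (0.95). For Dcpp1 they were Hmgn3 (0.98), Myh11 (0.96), Mapre1 (0.96) and Ripk1 (0.96), and for Dcpp3 Clcn4 (0.98), Mylk (0.96), Ccnd2 (0.96), Msln (0.96) and Ift74 (0.95). For Smgc they were Col11a1 (0.97), 5530400C23Rik (0.95), Srek1ip1 (0.93), Impa2 (0.93) and 1700016C15Rik (0.92). For Muc19, at its low counts, they were Gm27042 (0.95), Pgd (0.94), Trmt10a (0.93), Camk2b (0.92) and Kat2a (0.92). Cck and Igfbp5 had within-time SDs of 0.41 and 0.35, under that of Bpifa2, while Col11a1 and 5530400C23Rik, at 1.06 and 1.14, varied more than Smgc itself.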

How the data were processed

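RNA from gland sections was sequenced in 9 libraries, 3 per time point. The authors deposited raw counts per Ensembl gene, made with fastp, STAR and featureCounts on mm10, per the submitters' processing notes. Annotation, strand and multi-mapping settings are not given in the sources used here, and 3 further count columns were not used. Of 54532 identifiers 54409 had a symbol in GENCODE release 21. Genes passing edgeR's filterByExpr (minimum count 10) were fitted over all 9 libraries with edgeR 4.0.16 (TMM, quasi-likelihood test, R 4.3.3), with Benjamini-Hochberg adjustment over all genes and a threshold of 0.05. Spread used log2 CPM with a prior count of 2. DESeq2 1.42.0, limma 3.58.1 (voom), other scalings, filters, left-out libraries and a replicate block were alternatives. On simulated data for 60 against 30 days (15224 genes, 200 changed), edgeR recovered 68% of log2 changes of 1 and 83% of 2, and 5.03% of calls were false. The changed genes were drawn at random from all genes, whose median coefficient of variation between libraries in edgeR was 0.15. It was 0.39 (Muc19) to 0.87 (Dcpp1) for the 5 genes tested, so these rates do not apply to them. The 6 genes and the 11 gene lists were chosen with earlier results of these data known. Named from each list were the 4 most abundant genes or those passing the threshold, and for each gene tested its 5 nearest in pattern; some genes under this rule are not reported here. Other genes named here were chosen after their values were seen.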

Additional observations from a re-analysis of the deposited data

How the results depend on the processing

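Over the 15 log2 differences of single genes, 261 alternative values kept their direction and side of the threshold, 4 turned sign and 3 newly passed. Leaving out 1 library at a time, Smgc between 30 and 90 days ran from -0.0094 (without 30-day library 1) to 0.94, and Dcpp1 between 60 and 90 days from -0.43 (without 90-day library 2) to 1.36. The SD of Dcpp3 within time points ran from 0.80 (without 90-day library 1) to 1.48. Between 30 and 90 days, and for any difference, 0 to 1 of the genes passed in these fits, the 1 being Dcpp3 without 90-day library 1. In that fit 595 of all 15433 genes passed between 30 and 90 days and 499 for any difference. DESeq2 called 1, Dcpp3, between 30 and 90 days. With the replicate block 1 gene, Dcpp3, passed between 30 and 90 days, where 717 of all 15224 genes did. Deviations of same-numbered libraries had a median r of 0.05 (range -0.06 to 0.19, 9 pairs), against -0.01 (range -0.21 to 0.19, 18 pairs) for differently numbered ones. The labels state no pairing, and correlations this small cannot show whether the numbers pair the samples. Over all genes, calls between 30 and 60 days were 238, and 90 with library size alone, 376 with DESeq2 and 152 with limma-voom. Between 60 and 90 days they were 39, and 150 with DESeq2 and 92 with the block, and between 30 and 90 days 544, and 867 with DESeq2. Without a filter they were 459, 354 and 1045. Library size alone turned the 275 higher and 269 lower calls between 30 and 90 days into 406 and 34. The cause was not tested. Summing the Dcpp genes was chosen after seeing the data. Depth limits Muc19 and Dcpp2, and the annotation used for counting, which is not given, limits Muc19 as well.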
